A study of Mus musculus with 6 samples.

Results

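The prostaglandin genes described here are the synthases Ptgs1, Ptgs2, Ptges, Ptgis and Ptgds, the receptors Ptger2, Ptger3, Ptger4 and Ptgfr, and the breakdown enzyme Hpgd. They were chosen by symbol from a list of 10 genes, 9 of which were among the 17419 genes of the table. All 9 were among the 13264 genes that passed the filter on low counts. Ptgds was not analysed here. RNA was sequenced in bulk from tendon entheseal fibroblasts of SKG mice, a strain that carries a mutation of Zap70 and is prone to autoimmune arthritis. The enthesis is the place where tendon or ligament is anchored in bone. The labels call 3 samples diseased and 3 un-diseased, with NTS and UN in their titles, and give replicate numbers 1 to 3 in either group. All 6 come from the one strain. The labels used here do not give the age of the mice, how disease arose or was scored, how the cells were isolated, whether they were cultured, or whether samples were separate or pooled animals. The p-values therefore speak only of the spread from sample to sample, part or all of which may be technical.

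Prostaglandins are lipid signals made from arachidonic acid, which phospholipases free from membranes. The cyclooxygenases, Ptgs1 (constitutive in many cells) and Ptgs2 (induced by cytokines, growth factors and mechanical load), turn it into prostaglandin H2. Terminal synthases then make the separate products. Ptges makes prostaglandin E2, a mediator of pain, vessel widening and bone turnover, and Ptgis makes prostacyclin. Prostaglandin E2 acts through Ptger1 to Ptger4, of which Ptger2 and Ptger4 raise cyclic AMP and Ptger3 mainly lowers it. Ptgfr is the receptor of prostaglandin F2 alpha, and Hpgd oxidises prostaglandins to inactive forms. Cyclooxygenases are the target of the non-steroidal anti-inflammatory drugs used against enthesitis.

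Expression is given as CPM, the usual scaling of a gene's count by the effective total of its library. Depth was 16720612 to 18290873 counts per sample, and the limit for a gene with no count, 3 counts, stood at 0.147 to 0.188 CPM. All 10 fibroblast markers looked up were present in each sample, with a summed level of 85069 to 119548 CPM in diseased and 63645.2 to 90231.5 CPM in un-diseased samples. Most of that sum was Col1a1, Col1a2 and Col3a1, with log2 fold changes of 0.71, 0.49 and 0.72, while Dcn and Pdgfra had -0.53 and -0.17. By edgeR without the block 0 of the 10 passed, and 6 had an unadjusted p below 0.05, as did 27.8% of all genes tested. DESeq2 called 5 higher and 1 lower, where it called 4.79% of all genes higher and 6.65% lower. Of 7 tendon markers all had a fold change above 0; Thbs4 (1.16) and Fmod (1.02) rose without the block, and Scx and Mkx also rose with it. The smooth muscle marker Acta2 rose at 1.10 and the Schwann cell marker Erbb3 fell at -1.27 without the block. The part of these differences in the results below was not tested. Markers of macrophages summed to 415, 596.2 and 242.5 CPM in diseased replicates 1, 2 and 3 and to 158, 332.8 and 97.8 CPM in un-diseased ones. The fold change was above 0 for 16 of the 17 tested, and its median was 1.21 in log2. Without the replicate block 0 of 17 passed by edgeR, and 5 had an unadjusted p below 0.05, beside 27.8% of all genes tested. DESeq2 called 2 higher, beside 4.79% of all genes. With the block edgeR called 15 higher, beside 10.5% of all genes. Fcgr1 was at 0 in un-diseased replicate 3, and no other macrophage marker was at 0 in any sample. Mast cell markers summed to 7.39 to 63.1 CPM in diseased and 5.7 to 54.7 CPM in un-diseased samples, and with the block Cpa3, Mcpt4, Tpsb2 and Cma1 fell and Hdc rose. In bulk RNA, fewer cells of a type and less RNA per cell cannot be told apart.

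The RefSeq sequence upstream of the annotated start (GRCm38.p6) was found for 8 of the 9 genes. It is shown for Ptgs2 and Ptges, the inducible pair that lies in series in prostaglandin E2 synthesis. It is also shown for Ptgfr, the member that edgeR called higher with the replicate block but not without it. Each is 250 bases, 5′ to 3′ on the gene's strand, and ends at the base before the start. They lie at chr1:150099781-150100030 (plus strand), chr2:30903298-30903547 (minus strand) and chr3:151837529-151837778 (minus strand). The Ptges start in this table lies inside the span of the gene given below. Capitals mark a match to a motif searched, TTGCGCAA of C/EBP factors, which lies 69 to 62 bases before the Ptgs2 start.
Ptgs2: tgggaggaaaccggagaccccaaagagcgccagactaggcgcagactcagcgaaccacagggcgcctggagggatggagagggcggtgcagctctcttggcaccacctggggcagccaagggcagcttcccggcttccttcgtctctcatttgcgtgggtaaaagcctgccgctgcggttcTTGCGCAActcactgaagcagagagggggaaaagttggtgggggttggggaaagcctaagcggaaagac
Ptges: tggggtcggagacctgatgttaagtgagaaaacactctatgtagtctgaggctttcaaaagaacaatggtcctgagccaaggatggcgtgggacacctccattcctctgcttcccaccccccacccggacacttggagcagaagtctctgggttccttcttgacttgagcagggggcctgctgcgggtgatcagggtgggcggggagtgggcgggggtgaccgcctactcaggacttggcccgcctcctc
Ptgfr: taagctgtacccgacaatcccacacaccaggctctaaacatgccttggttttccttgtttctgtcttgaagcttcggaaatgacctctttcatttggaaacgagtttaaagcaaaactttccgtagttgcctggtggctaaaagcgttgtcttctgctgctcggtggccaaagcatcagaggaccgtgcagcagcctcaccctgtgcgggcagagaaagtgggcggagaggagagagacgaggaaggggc

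The motifs searched on either strand included the TATA box (TATAAA, in 12.4% of 32851 RefSeq promoters of the same length). The cyclic AMP response element was searched in full (TGACGTCA, 1.55%) and as its short form (TGACG, 17.8%). The E-box (CACGTG) had a share of 6.02%, the AP-1 motif (TGANTCA) of 6.75%, the C/EBP motif of 0.164%, and 2 forms of the NF-kB motif of 0.14% and 0.0852%. No other motif searched lay in the 3 windows shown. In the first 50 bases after the annotated Ptgs2 start, an E-box lay at bases 17 to 22 and the short form of the cyclic AMP response element, on the minus strand, at bases 14 to 18, so that these matches overlapped. These first 50 bases were searched after the upstream result was seen, and a match is a string of letters, not a site.

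The prostacyclin synthase gene Ptgis fell in the comparison of the 3 diseased with the 3 un-diseased samples. With the replicate number as a block Ptgs2 and Ptges fell too, and Ptgfr rose. The count of members without the block was 0 higher and 1 lower among 9, where 1.61% of all genes tested were called higher and 2.13% lower (edgeR's quasi-likelihood test, adjusted p below 0.05). With the block it was 1 higher and 3 lower, where 10.5% of all genes were called higher and 13.3% lower. Samples that share a number deviated together across all genes, so the blocked values of the members are given beside the unblocked ones. The labels do not state that shared numbers pair the samples, and the pairing was read from these same data. Without the block 3 members had an unadjusted p below 0.05, as did 27.8% of all genes tested. DESeq2 called 1 member higher and 2 lower, where it called 4.79% of all genes higher and 6.65% lower. The groups did not overlap for 3 members, of which Ptgfr was higher and Ptges and Ptgis were lower. Over all genes tested 16.5% were higher without overlap and 15.4% lower. The median log2 fold change of the 9 genes was -0.25, beside 0.02 over all genes tested. Over all genes 213 were called higher and 282 lower; with upper-quartile scaling, which moved the median of all genes to 0.10, these were 417 and 288. GENCODE M21 places genes of the opposite strand over parts of Ptgs1, Ptgis, Ptger2, Ptger4 and Ptgfr, and as no source used here states strand in the counting, their reads cannot be told apart.

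**Figure D1:**
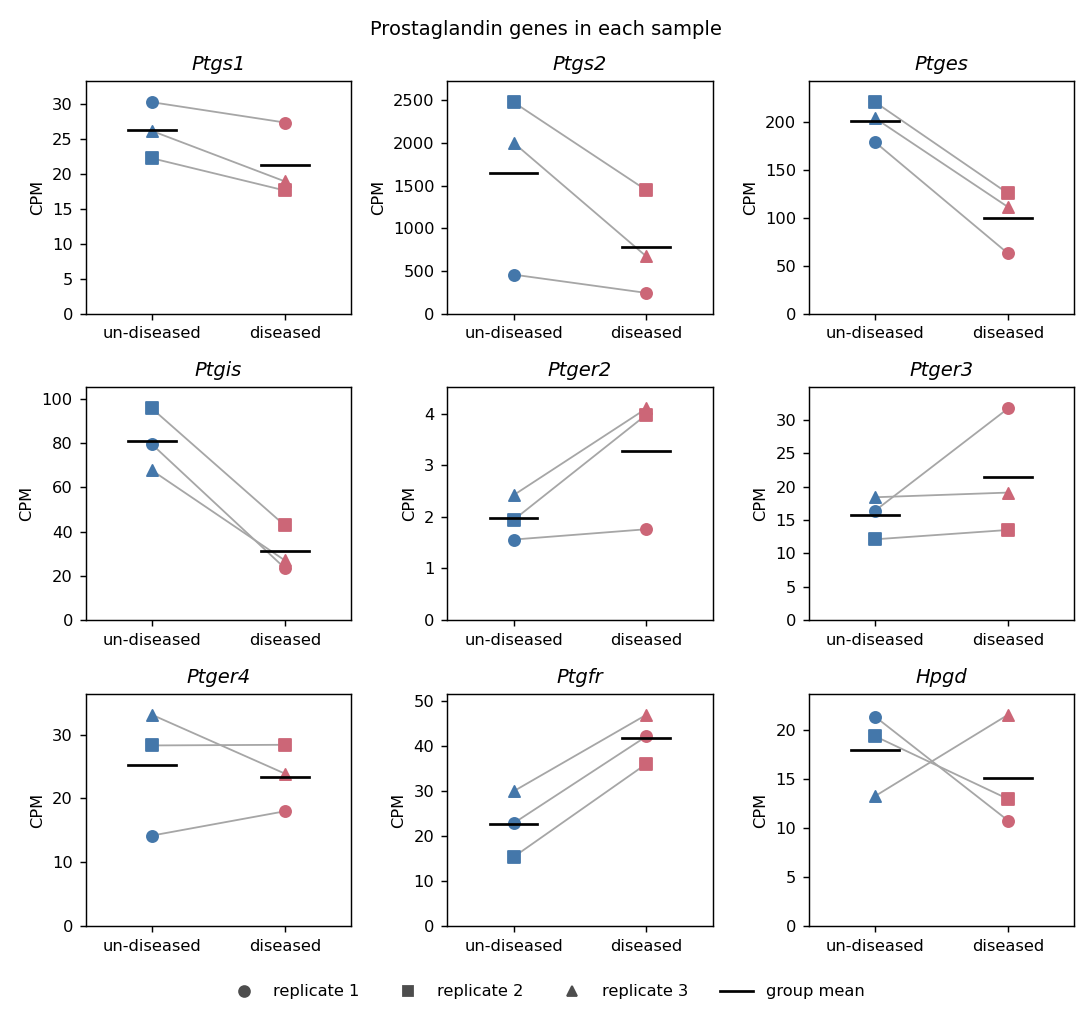
CPM of the 9 prostaglandin genes in each of the 6 samples, each panel on its own linear axis from 0. Symbols give the replicate number, grey lines join samples that share a number, and black bars are group means of 3. All 3 lines fall for Ptgs1, Ptgs2, Ptges and Ptgis and all 3 rise for Ptger2, Ptger3 and Ptgfr. Ptgs1, Ptger2 and Ptger3 passed neither edgeR fit, and pairs 2 and 3 of Ptger3 differ by only 0.15 and 0.05 in log2 CPM. The share of all genes with the same direction in all 3 pairs was not counted.

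Ptgs2 (gene 19225, chromosome 1, 150100031 to 150108234, plus strand), the inducible cyclooxygenase, was the most abundant member. Its level was 458.3, 2475.1 and 2001.2 CPM in un-diseased replicates 1, 2 and 3, and 244, 1445.4 and 670.5 CPM in the diseased ones. Replicate 1 was the lowest of each group and replicate 2 the highest, and the groups overlapped. The means were 786.6 ± 609.1 CPM in diseased and 1644.9 ± 1054.5 CPM in un-diseased samples (SD, n = 3 each). Without the block its log2 fold change was -1.06 (SE 0.74; edgeR adjusted p = 0.365), so the difference was within the spread between replicates. With the replicate block it was -1.09 (SE 0.18; edgeR adjusted p = 0.00593), and Ptgs2 was lower in the diseased sample of all 3 pairs, by -0.91, -0.78 and -1.58 in log2 CPM. The blocked call held when any 1 pair was left out, with adjusted p of 0.00152 to 0.0312 by edgeR. The spread of Ptgs2 within groups was among the widest of all genes, a pooled SD of 1.31 in log2 CPM that ranked at the 99.2 percentile of those tested. Its highest sample stood 5.92 times above its lowest in the diseased and 5.4 times in the un-diseased group.

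Replicate 2, which had the most Ptgs2 in each group, also had the highest sums of macrophage and neutrophil markers. Neutrophil markers summed to 126.3, 228.2 and 49.2 CPM in diseased replicates 1, 2 and 3 and to 38.8, 243.2 and 13.2 CPM in the un-diseased ones. Un-diseased replicate 3, with the lowest sums of both lists, had the second highest Ptgs2 level. Macrophages can express Ptgs2, and between the groups their markers were higher in diseased samples while Ptgs2 was lower. The part of other cells in the level of Ptgs2 was not tested.

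Ptgs1 (gene 19224, chromosome 2, 36216742 to 36258593, plus strand), the constitutive cyclooxygenase, was steadier. Its level was 30.2, 22.2 and 26.1 CPM in un-diseased replicates 1, 2 and 3 and 27.3, 17.6 and 18.9 CPM in the diseased ones. Its order within groups was opposite to that of Ptgs2, with replicate 1 the highest and replicate 2 the lowest of each group. The log2 fold change was -0.30 (SE 0.19; edgeR adjusted p = 0.341), and the adjusted p with the replicate block was 0.0711, so neither passed. The platelet markers, from a cell type rich in Ptgs1, summed to 15 to 18.7 CPM in diseased and 16.9 to 19.8 CPM in un-diseased samples, most of it Itga2b.

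Ptges (gene 64292, chromosome 2, 30889471 to 30931020, minus strand), the inducible microsomal prostaglandin E synthase, stood at 179.2, 221 and 204.2 CPM in un-diseased replicates 1, 2 and 3. In the diseased ones it had 63, 125.7 and 111.5 CPM, all below each un-diseased sample. The log2 fold change was -1.01 (SE 0.24; edgeR adjusted p = 0.063), which missed the threshold. With the replicate block it was -1.06 (SE 0.14; edgeR adjusted p = 0.00321), and the 3 pairs differed by -1.51, -0.81 and -0.87 in log2 CPM. DESeq2 called it lower without the block too, with an adjusted p of 0.00178.

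Ptgis (gene 19223, chromosome 2, 167203194 to 167252150, minus strand), the prostacyclin synthase, was called lower with and without the block. Its level was 79.5, 95.7 and 67.7 CPM in un-diseased replicates 1, 2 and 3 and 23.5, 42.8 and 27 CPM in the diseased ones. The highest diseased sample lay below the lowest un-diseased one. The means were 31.1 ± 10.3 and 81 ± 14.1 CPM, a log2 fold change of -1.38 (SE 0.24; edgeR adjusted p = 0.0301). With the replicate block the fold change was -1.41 (SE 0.13; edgeR adjusted p = 0.00115), and the pairs differed by -1.75, -1.16 and -1.32. The unblocked call was lost without diseased replicate 1 (adjusted p = 0.0611 by edgeR), diseased replicate 3 (0.145), un-diseased replicate 2 (0.0917) or un-diseased replicate 3 (0.069), with log2 fold changes of -1.21 to -1.68 over all 6 such fits. Endothelial cells also express Ptgis; their markers summed to 52.5 to 71.3 CPM in diseased and 61.6 to 88.4 CPM in un-diseased samples, of which Tek made up most. Of the 10 endothelial markers tested 8 had a fold change above 0. Erg rose without the block, at 1.43 (adjusted p = 0.0254 by edgeR). With the block Erg, Tie1 and Egfl7 rose and Tek fell. The defining markers Pecam1, Cdh5 and Kdr were at or below 5.79 CPM in each sample. The part of endothelial cells in the fall of Ptgis was not tested.

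**Figure D2:**
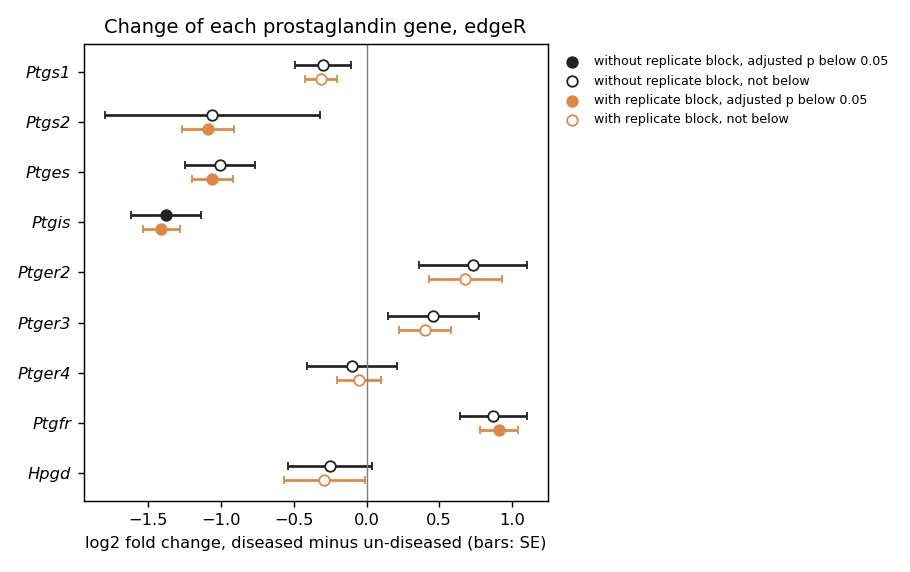
Log2 fold change of each of the 9 genes, diseased minus un-diseased, from edgeR without and with the replicate block; bars are 1 SE and filled points have an adjusted p below 0.05. Ptgis passed in both fits, and Ptgs2, Ptges and Ptgfr passed with the block, where the SE of Ptgs2 was 0.18 in place of 0.74.

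Among the receptors, Ptgfr (gene 19220, chromosome 3, 151798610 to 151837528, minus strand), the receptor of prostaglandin F2 alpha, stood at 22.9, 15.4 and 30 CPM in un-diseased replicates 1, 2 and 3. It had 42.2, 36.1 and 47 CPM in the diseased ones, each above all un-diseased samples. Its log2 fold change was 0.87 (SE 0.23; edgeR adjusted p = 0.0763), and with the replicate block 0.91 (SE 0.13; edgeR adjusted p = 0.00334.) The 3 pairs rose by 0.88, 1.22 and 0.65 in log2 CPM. DESeq2 without the block called it higher, with an adjusted p of 0.0102.

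The prostaglandin E2 receptors among the members differed by less than the spread between replicates or missed the threshold. Ptger1, which is not a member, had a log2 fold change of 0.20 (SE 0.28, edgeR adjusted p = 0.668). Ptger2 (gene 19217, chromosome 14, 44988111 to 45003820), which raises cyclic AMP, had 1.76, 3.98 and 4.1 CPM in diseased replicates 1, 2 and 3 and 1.56, 1.94 and 2.42 CPM in the un-diseased ones. Its log2 fold change was 0.73 (SE 0.37; edgeR adjusted p = 0.238), and the adjusted p with the replicate block was 0.0841. It was the scarcest member, with 30 to 76 counts per sample. Ptger3 (gene 19218, chromosome 3, 157566821 to 157644758), which mainly lowers cyclic AMP, had 31.7, 13.5 and 19.1 CPM in diseased and 16.4, 12.1 and 18.4 CPM in un-diseased replicates 1, 2 and 3. Only diseased replicate 1 stood above the un-diseased range by a wide margin, and without it the log2 fold change of 0.46 (SE 0.31, adjusted p = 0.354 by edgeR) was 0.06; with the replicate block it was 0.40 (edgeR adjusted p = 0.138). Ptger4 (gene 19219, chromosome 15, 5233399 to 5244187), the other receptor that raises cyclic AMP, had 18, 28.4 and 23.9 CPM in diseased and 14.2, 28.3 and 33.1 CPM in un-diseased replicates 1, 2 and 3. The groups overlapped fully, with a log2 fold change of -0.10 (SE 0.31; edgeR adjusted p = 0.847), and pairs 1 and 3 differed in opposite directions, by 0.34 and -0.47. With the replicate block the change was -0.05 (edgeR adjusted p = 0.834).

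Hpgd (gene 15446, chromosome 8, 56294552 to 56321046), the dehydrogenase that inactivates prostaglandins, had 10.8, 13 and 21.6 CPM in diseased and 21.4, 19.4 and 13.3 CPM in un-diseased replicates 1, 2 and 3. The highest sample of all 6 and the lowest were both diseased ones. The log2 fold change was -0.25 (SE 0.29; edgeR adjusted p = 0.578), and the adjusted p with the replicate block was 0.472. Pairs 1 and 2 differed by -0.98 and -0.58 and pair 3 by 0.70; with pair 3 left out the blocked change was -0.79 (edgeR adjusted p = 0.0441).

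Levels of different genes were compared as CPM per kilobase of merged exons (GENCODE M21, GRCm38). In un-diseased samples Ptgs2 stood first at 359 ± 230, followed by Ptges at 51.2 ± 5.36 and Ptgis at 31.6 ± 5.48 (SD, n = 3). Hpgd at 10.7 ± 2.51 and Ptgs1 at 6.74 ± 1.03 came next, and then Ptger4 at 3.79 ± 1.47, Ptgfr at 3.36 ± 1.08, Ptger3 at 2.75 ± 0.562 and Ptger2 at 0.38 ± 0.0823. Ptger4, Ptgfr and Ptger3 did not differ beyond their spread there. In diseased samples Ptgs2 had 172 ± 133, Ptges 25.5 ± 8.36, Ptgis 12.1 ± 3.99, Hpgd 8.99 ± 3.41, Ptgfr 6.16 ± 0.805, Ptgs1 5.48 ± 1.36, Ptger3 3.77 ± 1.64, Ptger4 3.53 ± 0.78 and Ptger2 0.632 ± 0.254. Ptgfr thus stood above Ptgs1 by mean in the diseased group only, within their spread. Neighbours in this order, from Ptgis down to Ptger4, lay within their spread in that group.

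Ratios between members were taken per length. Ptgs2 exceeded Ptgs1 by 12.9, 94.4 and 65.1 times in un-diseased replicates 1, 2 and 3 and by 7.57, 69.6 and 30 times in the diseased ones, so that the inducible form stood above the constitutive one in every sample. The ratio of Ptgis to Ptges was 0.68, 0.663 and 0.508 in the un-diseased and 0.571, 0.521 and 0.371 in the diseased replicates, in which both genes were lower. Within pairs of same-numbered samples, 3 of the 5 ratios went one way in all 3 pairs: Ptgs2 to Ptgs1 and Ptgis to Ptges were lower in the diseased sample, and Ptgfr to Ptger4 was higher. Several ratios have a gene in common, and how often ratios of other genes go one way in all pairs was not counted. In the unpaired comparison none of the 5 passed, with exact two-sided permutation p of 0.2 to 1, where 3 against 3 samples cannot go below 0.1, and adjusted p of 0.75 to 1.

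Within the groups some members varied together, which was not compared with pairs of other genes. As a description over 6 samples, the deviations of log2 CPM from the group mean of Ptgs2 had a Pearson correlation of 0.93 with those of Ptger4, 0.83 with Ptges, 0.80 with Ptger2 and 0.62 with Ptgis. They ran against Ptgs1 (-0.92) and Ptger3 (-0.74). Ptges ran with Ptger2 (0.93) and against Ptgs1 (-0.95) and Ptger3 (-0.91), while Ptgs1 and Ptger3 ran together (0.90). Hpgd and Ptgfr were only loosely tied to Ptgs2, at -0.05 and -0.28. Replicate 1 was the low sample for Ptgs2, Ptges, Ptger2 and Ptger4 in each group. The points share their libraries and the replicate numbers. Across the 9 members, the deviations of same-numbered samples correlated at 0.73 for replicate 1, 0.90 for replicate 2 and -0.16 for replicate 3.

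**Figure D3:**
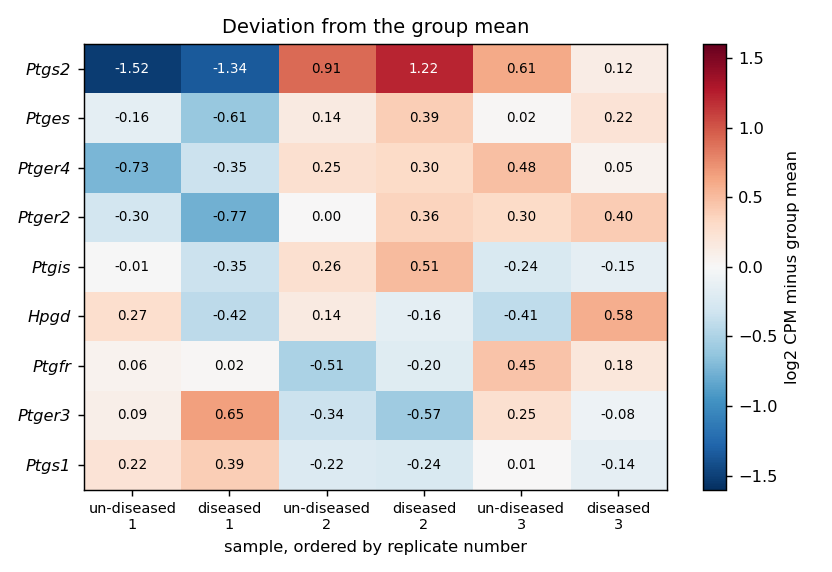
Log2 CPM of each member minus its group mean, with samples ordered by replicate number so that same-numbered samples stand side by side. Ptgs2 is at -1.52 and -1.34 in the samples numbered 1 and at 0.91 and 1.22 in those numbered 2, and Ptgs1 has the opposite signs there.

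For the members called by either test, the 3 genes of the most similar pattern over the 6 samples were named by Pearson correlation of log2 CPM among 10339 genes. Those of Ptgs2 were Pde4b, a phosphodiesterase that degrades cyclic AMP, Dusp10, a phosphatase of stress-activated kinases, and Igsf3, each at 0.997. Those of Ptges were Pnp, the adhesion molecule gene Icam1 and Oplah, at 0.996 to 0.998. Those of Ptgis were Pdzd2, the metalloproteinase inhibitor gene Timp3 and Cachd1, at 0.996 to 0.999, and those of Ptgfr were Pgpep1, Hint3 and Ppp2r3c, at 0.991 to 0.994. At the lower limit of 0.95, 331 genes passed for Ptgs2, 193 for Ptges, 228 for Ptgis and 105 for Ptgfr.

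Ptgir, the prostacyclin receptor, was the most abundant of 9 receptors per length. It had 33, 38.7 and 37.4 CPM in diseased replicates 1, 2 and 3 and 52.7, 63.8 and 87.6 CPM in the un-diseased ones, with no overlap. It fell, with a log2 fold change of -0.90 (SE 0.19; edgeR adjusted p = 0.0443), as did the synthase of its ligand, Ptgis. Of the summed CPM per kilobase over the 9 receptors, Ptgir took 35.4% to 43.7% in diseased and 55.6% to 63.1% in un-diseased samples. Ptgfr took 20.1% to 24.2% and 7.35% to 11.9%. The mean difference was -20.8 percentage points for Ptgir and 12.2 for Ptgfr, each with an exact two-sided permutation p of 0.1. That is the smallest that 3 against 3 samples allow, and it was 0.225 adjusted over the 9. Ptger2 and Tbxa2r had the same p and adjusted p in this test, at 1.16 and 0.596 points. Shares are parts of the same whole, so a lower share of Ptgir by itself raises those of the others. The shares of Ptger4, 12.8% ± 3.2 and 11.1% ± 3.22 (SD, n = 3), overlapped. Over the 8 receptors without Ptger1, the shares were 42.2% ± 3.74 and 63.4% ± 2.65 for Ptgir and 23.8% ± 2.39 and 10.5% ± 2.67 for Ptgfr (diseased and un-diseased, SD, n = 3).

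**Figure D4:**
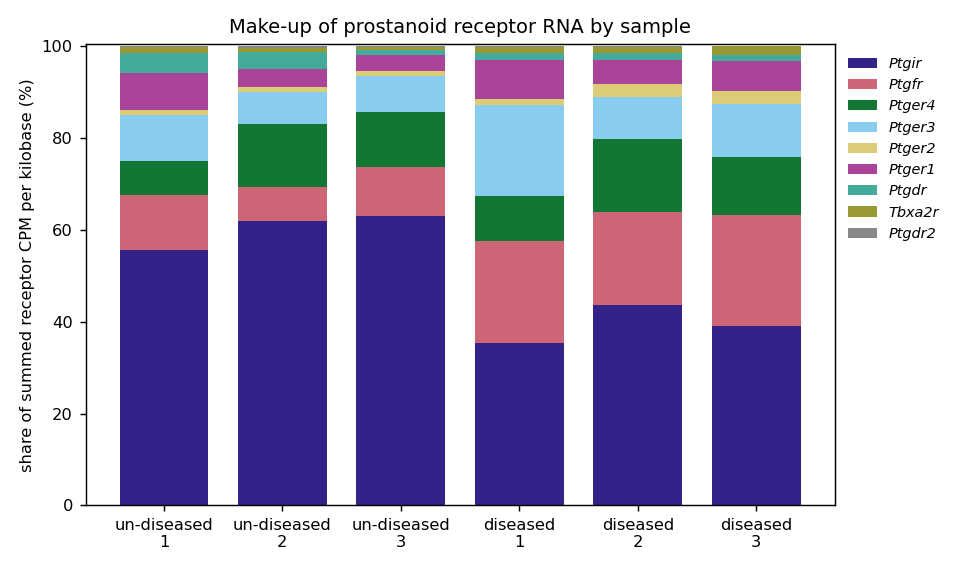
Share of each of 9 prostanoid receptor genes in their summed CPM per kilobase, one stacked bar per sample. Ptgir takes 55.6% or more in each un-diseased and 43.7% or less in each diseased sample, and Ptgfr 11.9% or less and 20.1% or more.

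With the replicate block Ptgir fell as well, at -0.88 (edgeR adjusted p = 0.00388). Of 5 tested genes in the list of other prostanoid receptors and their partners, 0 rose and 1, Ptgir, fell without the block, and 1 rose and 2 fell with it. The shares of all genes called by edgeR were 1.61% higher and 2.13% lower without the block, and 10.5% and 13.3% with it. Ptgfrn, a membrane protein that binds the F receptor and dampens its signalling, had 574.6, 622.1 and 625 CPM in diseased replicates 1, 2 and 3 and 419.8, 381.1 and 489.5 CPM in un-diseased ones. Its log2 fold change was 0.50 (edgeR adjusted p = 0.0857), and it rose with the block (adjusted p = 0.0237), as Ptgfr did. Ptgdr, a receptor of prostaglandin D2, had 1.13 to 1.42 CPM in diseased and 1.49 to 4.01 CPM in un-diseased samples and fell with the block (adjusted p = 0.0268 by edgeR).

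Of 6 transport and breakdown genes tested, 1 rose and 2 fell without the block, where 1.61% of all genes rose and 2.13% fell. With it 1 rose and 3 fell, where 10.5% and 13.3% of all genes did. Slco2a1, the transporter that takes prostaglandins into cells for breakdown, stood at 106.7, 152.8 and 128.8 CPM in un-diseased replicates 1, 2 and 3 and 28.4, 49.2 and 37.1 CPM in the diseased ones. It fell by 1.76 on the log2 scale (SE 0.22, adjusted p = 0.0247 by edgeR), with no overlap between the groups. Zadh2, a prostaglandin reductase, fell as well, at -0.64 (adjusted p = 0.0446 by edgeR), while Ptgr1, another reductase of prostaglandins and leukotriene B4, rose at 0.59 (adjusted p = 0.0435). With the block these 3 genes were called in the same directions, at -1.78, -0.63 and 0.59. Slco3a1 fell with the block alone, at -0.33 (adjusted p = 0.038 by edgeR).

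Of 14 tested genes that release arachidonate 0 rose and 1 fell without the block, with a median log2 fold change of -0.25. With the block 1 rose and 4 fell. Among all genes 1.61% rose and 2.13% fell without the block, and 10.5% and 13.3% with it. Daglb, a diacylglycerol lipase that makes the arachidonate donor 2-arachidonoylglycerol, stood at 64.8, 130.4 and 61 CPM in un-diseased and 23.1, 22.9 and 20.7 CPM in diseased replicates 1, 2 and 3. It fell by 1.94 on the log2 scale (SE 0.29, adjusted p = 0.0254 by edgeR), and with the block its change was -1.85 (adjusted p = 0.00167). With the block Mgll, which frees arachidonate from that donor, fell at -0.48, the secreted phospholipase gene Pla2g12a fell at -0.43, as did Pla2g5 at -0.80, and the lysosomal Pla2g15 rose at 0.39. Pla2g4a, the cytosolic phospholipase that feeds cyclooxygenases, had 24.8 to 27.1 CPM in diseased and 28.7 to 33.2 CPM in un-diseased samples (log2 fold change -0.23, adjusted p = 0.187 by edgeR and 0.116 with the block); it and Pla2g5 were named after their values were seen. Of 9 other synthases 0 passed without the block by edgeR, 0 by DESeq2 and 1 at an unadjusted p below 0.05 by edgeR. Such an unadjusted p was found for 27.8% of all genes tested. Ptges3, a cochaperone also known as the cytosolic prostaglandin E synthase, fell with the block, at -0.37 (adjusted p = 0.0267 by edgeR).

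Of 32 genes of cyclic AMP signalling, the pathway downstream of Ptger2 and Ptger4, 1 rose and 1 fell without the block. With it 5 rose and 7 fell, and the median log2 fold change was 0.06. For all genes these shares were 1.61% and 2.13% without the block and 10.5% and 13.3% with it. Adcy7, an adenylyl cyclase, rose at 0.49 (adjusted p = 0.0444 by edgeR), and the phosphodiesterase gene Pde8a fell at -0.79 (adjusted p = 0.0254); with the block their changes were 0.49 and -0.78, and both were called. With the block the phosphodiesterase gene Pde7b rose at 0.69 and Akap12, which anchors protein kinase A, fell at -0.93. In the related leukotriene and lipoxygenase list 0 of 12 passed without the block by edgeR, 2 had an unadjusted p below 0.05, and DESeq2 called 1 lower. Over all genes 27.8% had such an unadjusted p by edgeR, and DESeq2 called 6.65% lower. With the block 1 rose and 3 fell, beside the same 10.5% and 13.3% of all genes. Alox5ap, the helper of 5-lipoxygenase, rose at 1.61. Aloxe3, Alox15 and the epoxide hydrolase gene Ephx1 fell at -2.09, -1.64 and -0.50. Aloxe3 was scarce, with 4 to 11 counts in diseased and 20 to 51 in un-diseased samples. Alox15 was too, with 3 to 15 and 24 to 37 counts. Alox5ap had 4 counts in un-diseased replicate 3. Alox5ap is a myeloid gene, and the macrophage markers were higher in the same comparison, as given above; their part was not tested.

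**Figure D5:**
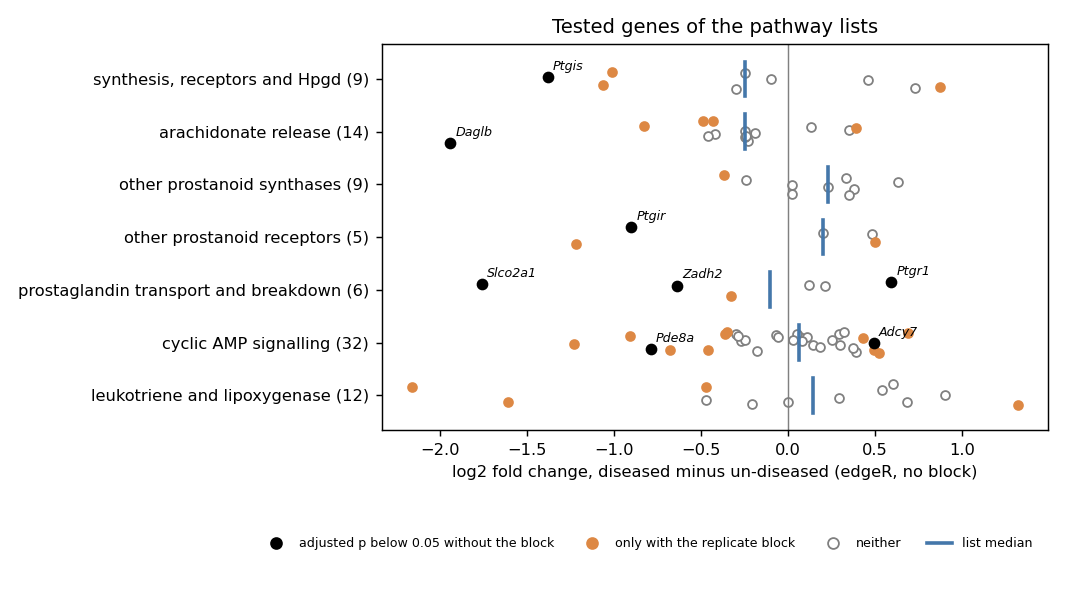
Log2 fold change without the block for each tested gene of the pathway lists, with the number tested beside each name; black points passed without the block and are named, orange points passed only with it, and blue bars are list medians. The prostaglandin genes have their median at -0.25, and the falls of Ptgis, Ptgir, Slco2a1 and Daglb lie between -0.90 and -1.94.

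In the authors' deposited table, 3 members had a q-value below 0.05, where 7.81% of its genes did. Its log2 ratios of un-diseased over diseased were 1.39 for Ptgis (q-value 6.79e-06), 1.02 for Ptges (q-value 0.00226) and -0.87 for Ptgfr (q-value 0.0131). For Ptgs2 the authors' deposited table gives a ratio of 1.08 with a q-value of 0.514.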

How the data were processed

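The labels give TRIzol extraction and paired reads from a BGISEQ-500 for the 6 bulk samples. The table holds estimated counts per gene made by the authors, of which 9.61% were not whole. The submitters' processing notes name HISAT2 2.0.4, RSEM 1.3.1, DESeq2 1.4.5 and build GRCm38, with no role. The deposited p-value, q-value and log2 ratio were used only where named.

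Counts were rounded, and filterByExpr (minimum 10; edgeR 4.0.16, R 4.3.3) set which genes were tested. The main comparison used TMM scaling and edgeR's quasi-likelihood test over 13264 genes with p-values adjusted by Benjamini-Hochberg and called below 0.05. The SE is the fold change over the root of the F statistic. Depth was 16720612 to 18290873 counts, and floors cover counting error only. Deviations from group means correlated at 0.487, 0.578 and 0.276 between samples numbered 1, 2 and 3, each over the 0.1 required. Between samples of unlike number they correlated at -0.531 to 0.137. Diseased replicate 3 with un-diseased replicate 1, at 0.137, was thus over 0.1 too. The numbers of the labels were taken to pair the samples. Samples of a group differed beyond sampling noise (chi-square per gene of 25.3 to 61.7). Alternatives were other scalings, filters, DESeq2 1.42.0, limma-voom (limma 3.58.1), the block and leaving out samples; steps were tested on simulated data.

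The members and lists were chosen with earlier results of these data known. Named are all members and, per pathway list, up to 4 genes called with or without the block, by smallest adjusted p.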

Additional observations from a re-analysis of the deposited data

How the results depend on the processing

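Over all genes 495 were called without the block, 3167 with the replicate block, 1517 with DESeq2 and 2217 with DESeq2 and the replicate block. Leaving out 1 sample gave 5 to 1075, and the replicate block without pair 1, 2 or 3 gave 2569, 2083 and 1009. Of the members, 1 was called in the main comparison, 2 with upper-quartile factors and 2 with no filter beyond 1 count, where Ptges was added. DESeq2 called 3, the replicate block 4 and DESeq2 with the replicate block 4; with pair 1, 2 or 3 left out the block called 4, 4 and 5. Leaving out 1 sample gave 0 to 1 called members. Of the 78 other pathway genes tested 7 were called without the block, 2 higher and 5 lower, where 1.61% and 2.13% of all genes were. With the replicate block 29 were called, 9 higher and 20 lower, where 10.5% and 13.3% of all genes were.

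Ptgs1, Ptgs2, Ptges, Ptgis, Ptgfr, Ptger2 and Ptger3 kept their direction in all 17 alternatives. Ptgs2 ranged from -1.85 to -0.64 and Ptgfr from 0.66 to 1.12 in log2 fold change. Hpgd turned to 0.06 with the replicate block and pair 1 left out. Ptger4 turned to 0.17 with the block and pair 3 left out and ranged from -0.40 to 0.14 when 1 sample was left out. The cause was not tested. With 3 samples a group, no exact permutation p can go below 0.1, and the counts of Ptger2, 30 to 76, limit its precision.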
